A study of Populus trichocarpa
Populus deltoides with 74 samples.

Results

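Lateral vegetative buds of poplar were compared with basal shoot tips taken in May, both at ages 5 and 6 years. The comparison was chosen from the sample labels alone, by organ, age, sex label and, for the tips, position and month. It took 16 of the 74 arrays of the study, which came from 8 of its 37 RNA isolations. Each side held 4 isolations, 2 at each age, and each isolation had been hybridised with the dye Cy5 to a pair of array wells. All 217 oligonucleotide probes (oligos) of the table were tested.

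Both sides came from wild type poplar, and the samples name Populus trichocarpa and Populus deltoides together. The shoot tips were labelled female. The bud labels give neither a sex nor a month, and buds labelled male were not used. Effects of organ, sex and month of collection therefore cannot be told apart. The isolations are called biological replicates in the design, but separate trees are not stated as their source, and the p-values therefore measure only how isolations vary. A bud and a shoot tip are mixtures of tissues, in which fewer cells of a type and less RNA per cell cannot be told apart.

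A lateral bud encloses a shoot meristem and preformed leaves under scales, whereas a growing shoot tip carries an active apical meristem, young leaves and elongating stem. Auxin made in young leaves moves down the stem through PIN proteins, efflux carriers of the plasma membrane, and its transcriptional response is held in check by short-lived Aux/IAA repressors. Flowering in Arabidopsis is set by day length through CONSTANS, held back in the shoot by TERMINAL FLOWER 1 (TFL1), and carried out in the floral meristem by LEAFY and APETALA1. The table pairs no annotation with its IDs. Of the 217 IDs, 34 read as gene symbols and 183 are clone names or accessions, and roles are given below only as the symbols name a family.

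The 16 arrays had medians between 8.05 and 8.52 as deposited, gave a value for 211 to 217 oligos and missed 1.47% of values. Wells of an isolation correlated at 0.944 to 0.979 across oligos and isolations of a group at 0.954 to 0.992, while a bud isolation correlated with a tip isolation at 0.826 to 0.871. Background readings are not part of the values used here, so signal over background is unknown and the number of isolations limits the precision. By how the wells of an isolation differ, clustering placed all 37 isolations into 5 sets, a grouping found after the data were examined. These inferred groups are called hybridisation sets below, but the labels name no batch and the number of sets was fixed by hand. None of the 5 sets held both these buds and these tips: the buds fell in 2 sets and the tips in another 2, so no value within a set exists. A fit with the set as a term could be made, but only the June basal shoot tips of age 5 linked the sides. Their isolation a fell in a set of the tips and their isolation b in a set of the buds. The bud and tip differences from that fit rest on this pair of isolations. In that fit the median standard error of the bud and tip difference was 0.459, against 0.206 without the set.

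Differences between the bud and the tip samples were broad. At an adjusted p under 0.05 (limma, moderated two-sided test, Benjamini-Hochberg over 217 oligos), 100 oligos differed between buds and tips, which is 46.1% of those tested. Of these, 53 (24.4%) were higher in the buds and 47 (21.7%) were lower. The median difference of all oligos was −0.02 on the log2 scale. Of the 100, 97 had the same sign at ages 5 and 6. With the set as a term, 34 oligos were called, 17 higher and 17 lower. Of the 100 calls, 32 were kept in that fit, and 99 of the 100 kept their sign.

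Called oligos had a median absolute difference of 1.05 log2 units, against 0.237 for the oligos that did not pass. A difference of at least 1 log2 unit, a doubling, together with a call was found for 56 oligos (25.8%), 30 higher and 26 lower in the buds. At 2 log2 units or more, 10 oligos remained, 5 in each direction. For 79 oligos (36.4%) the 4 bud isolations and the 4 tip isolations did not overlap, with the buds above in 41 and below in 38. The split between directions moved with the scaling: the deposited values without scaling gave 60 higher and 42 lower, and arrays centred on their medians gave 36 higher and 63 lower. Centring moved the median difference of all oligos to −0.21, whereas it was 0.03 as deposited.

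**Figure D1:**
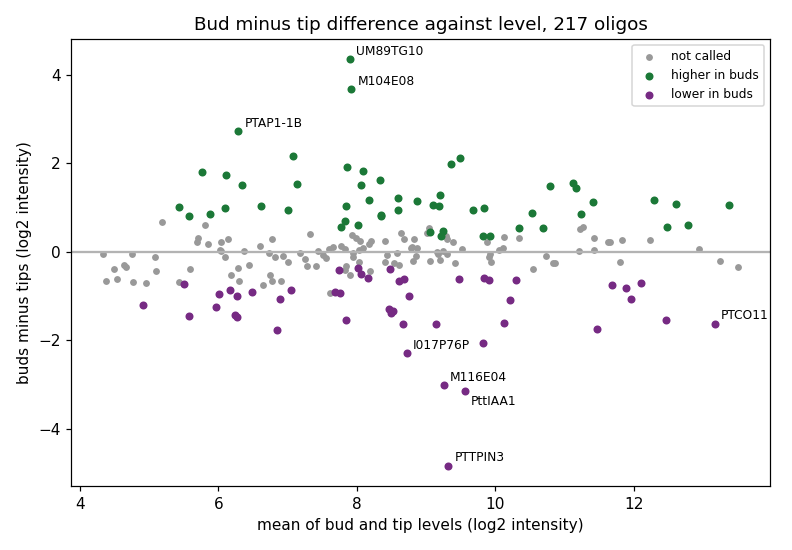
Each point is an oligo, with the mean log2 level of buds and May basal tips on the x axis and the difference, buds minus tips, on the y axis; green and purple points passed the test in the higher and lower direction, and grey points did not. The 53 higher and 47 lower oligos spread over the range of levels, with PTTPIN3 at −4.83 and UM89TG10 at 4.35 at the ends.

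Oligos with gene symbols were called about as often as the rest: 15 of 34 (44.1%), 8 higher and 7 lower, against 85 of 183 clone or accession IDs (46.4%), 45 higher and 40 lower. All 15 belonged to the 30 members of 11 gene lists grouped by family.

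The auxin efflux carriers went in different directions. Of 3 measured PIN oligos, 1 was lower in the buds, 1 was higher and 1 did not pass, with a median difference of 0.13. Over all oligos, 21.7% were lower and 24.4% higher. Levels below are given on the log2 scale, first for isolations a and b of age 5, then for isolations a and b of age 6. PTTPIN3 read 7.05, 6.78, 6.94 and 6.85 in the buds and 11.34, 11.54, 11.95 and 12.10 in the May basal tips. All bud isolations lay within a narrow band more than 4 log2 units under the lowest tip isolation. PTTPIN3 fell by 4.83 ± 0.32 (SE, 4 isolations a side) in the buds, a 28.3-fold lower level and the largest difference of any of the 217 oligos (limma adjusted p = 5.17e-11). With the hybridisation set as a term the difference was −5.25 (limma adjusted p = 0.000204).

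PTTPIN2 ran the other way, at 6.56, 6.76, 7.48 and 7.15 in the buds and 4.41, 5.39, 5.64 and 5.53 in the tips. The lowest bud isolation stood above the highest tip isolation. The rise was 1.75 ± 0.43, or 3.36-fold (limma adjusted p = 0.00175), and nearly equal at both ages, 1.77 at age 5 and 1.73 at age 6. Within an age, the PTTPIN2 call was lost in 3 of 4 fits without an isolation at age 5 and in 4 of 4 at age 6 (adjusted p up to 0.216 and 0.122). With the set as a term PTTPIN2 was 2.63 higher and did not pass (limma adjusted p = 0.0897). PTTPIN1 overlapped between the sides, at 5.99 to 7.13 in the buds and 5.09 to 7.54 in the tips. Its difference was 0.13, with a 95% interval from −0.43 to 0.69 (limma adjusted p = 0.729). The PTTPIN1 difference was −0.64 at age 5 and 0.90 at age 6, and neither passed (limma adjusted p = 0.212 and 0.0671). The age 6 difference did pass in 5 other settings, among them the deposited values and the set as a term.

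Of 5 Aux/IAA oligos, 3 were lower in the buds, 1 was higher and 1 did not pass, while 21.7% of all oligos were lower and 24.4% higher. The median difference of the Aux/IAA oligos was −0.63 against −0.02 over all oligos. PttIAA1 read 7.86, 7.95, 8.08 and 8.05 in the buds and 11.40, 11.80, 10.63 and 10.68 in the tips. The bud isolations spanned little, and the tips of age 5 were above those of age 6. PttIAA1 fell by 3.14 ± 0.13, an 8.83-fold lower level (limma adjusted p = 6.57e-15), and it kept its call in the fit with the set.

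PttIAA5 read 10.13, 10.20, 9.62 and 10.01 in the buds and 11.03, 10.75, 10.12 and 10.58 in the tips. The sides overlapped only where a tip isolation of age 6 fell among the buds. PttIAA5 fell by 0.63 ± 0.17 (limma adjusted p = 0.00433), and with the set as a term its difference was −0.63 without passing (limma adjusted p = 0.34). PttIAA4 read 5.29, 5.53, 5.77 and 5.53 in the buds and 6.54, 7.36, 5.76 and 6.26 in the tips, so its sides overlapped at age 6. It fell by 0.94 ± 0.33 (limma adjusted p = 0.0211). That call was lost on the values as deposited (−0.57, adjusted p = 0.161), with arrays centred on their medians (−0.82, adjusted p = 0.0505), with the set as a random block (−0.86, adjusted p = 0.0591) and with the set as a term (−0.11, adjusted p = 0.913). Dropping 1 bud or tip isolation at a time lost it in 4 of 8 fits, those without bud isolation a of age 5 or b of age 6 and those without tip isolation b of either age (adjusted p up to 0.0995).

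PttIAA2 was the Aux/IAA oligo that rose, from 11.15, 11.50, 10.71 and 9.85 in the tips to 11.42, 11.65, 12.11 and 11.45 in the buds. Its sides overlapped at age 5 and stood apart at age 6. The rise was 0.85 ± 0.19 (limma adjusted p = 0.000887) and held with the set as a term (1.43, adjusted p = 0.0236), but with arrays centred on their medians it was 0.27 and did not pass (adjusted p = 0.249). PttIAA6 read 8.78 to 10.24 in the buds and 9.15 to 9.92 in the tips. Its difference was 0.06, with a 95% interval from −0.43 to 0.55 (limma adjusted p = 0.872).

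Both CONSTANS homologs, relatives of the Arabidopsis gene that couples day length to flowering, were lower in the buds, with a median difference of −1.58. Among all oligos, 21.7% were lower. PTCO11 read 12.02, 11.87, 12.75 and 12.77 in the buds and 13.43, 13.98, 14.26 and 14.26 in the tips. The buds of age 6 were above those of age 5, and all 4 stayed under the lowest tip isolation. PTCO11 fell by 1.63 ± 0.15, a 3.09-fold lower level (limma adjusted p = 8.98e-09).

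PTCO12 read 11.12, 11.03, 12.41 and 12.24 in the buds and 13.23, 12.87, 13.29 and 13.56 in the tips. Its buds also ran higher at age 6 and did not reach the tips. PTCO12 fell by 1.54 ± 0.17, or 2.90-fold (limma adjusted p = 1.47e-07). PTCO11 was the brightest oligo on all 4 arrays of the May basal tips of age 6, where quantile scaling sets the brightest value to 14.26 on each array. On the values as deposited, with no such bound, the differences were −2.10 for PTCO11 and −2.07 for PTCO12. Both kept their calls in the fit with the set.

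The TFL1 and MFT family, related to phosphatidylethanolamine-binding proteins, had 2 oligos, 1 of them lower and 1 not passing, with a median of −0.45. Among all oligos, 21.7% were lower. PMFT, named for MOTHER OF FT AND TFL1, which acts in seed germination in Arabidopsis, read 7.12, 7.44, 7.34 and 7.26 in the buds and 8.26, 7.87, 8.30 and 8.41 in the tips. The sides did not overlap. PMFT fell by 0.92 ± 0.14 (limma adjusted p = 1.07e-05), with differences of −0.79 at age 5 and −1.06 at age 6, and with the set as a term its difference was −0.60 and did not pass (limma adjusted p = 0.248). PCEN-L, a CENTRORADIALIS-like relative of the floral repressor TFL1, overlapped fully, with 5.97 to 6.79 in the buds and 6.01 to 6.74 in the tips. Its difference was 0.03, with a 95% interval from −0.38 to 0.43 (limma adjusted p = 0.927). That mean joined −0.44 at age 5 and 0.49 at age 6, neither of which passed (limma adjusted p = 0.232 and 0.162). The age 6 difference of PCEN-L did pass as deposited, with arrays centred on their medians and under cyclic loess. So did its difference between the ages.

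All 3 floral meristem identity oligos were higher in the buds, where 24.4% of all oligos were higher, but none of the 3 passed over both ages with the set as a term. Their median difference was 1.81, against −0.02 over all oligos. PTAP1-1B, an APETALA1 relative, read 6.96, 6.45, 8.61 and 8.58 in the buds and 4.73, 5.71, 4.78 and 4.50 in the tips. The sides did not overlap, and the buds of age 6 were above those of age 5. PTAP1-1B rose by 2.72 ± 0.42, or 6.58-fold (limma adjusted p = 1.39e-05). At age 5 alone the difference was 1.49 and did not pass (limma adjusted p = 0.0544), and at age 6 it was 3.95. The age 5 difference passed in 4 other settings, among them the deposited values.

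PTAP1-2A, the second APETALA1 relative, read 4.21, 3.84, 9.12 and 9.50 in the buds and 5.62, 4.51, 4.65 and 4.64 in the tips. Only the buds of age 6 stood above the tips, while both buds of age 5 stood below all of them. The mean over both ages, 1.81 ± 0.52 (limma adjusted p = 0.00615), therefore joined a difference of −1.04 at age 5, which did not pass (limma adjusted p = 0.293), with one of 4.66 at age 6. With arrays centred on their medians the mean difference was 1.44 and did not pass (limma adjusted p = 0.0609). PTLF, the LEAFY relative that in Arabidopsis switches on floral meristem genes, read 9.10, 9.08, 9.36 and 9.62 in the buds and 9.06, 8.60, 9.18 and 8.50 in the tips, with overlap between the sides.

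PTLF rose by 0.46 ± 0.16 (limma adjusted p = 0.0269). Dropping 1 isolation at a time took away its call in 5 of 8 fits, those without bud isolations a or b of age 5, bud isolation b of age 6 or tip isolation b of either age (adjusted p up to 0.185), and so did centring arrays on their medians (0.27, adjusted p = 0.177) and fitting the compared groups alone (adjusted p = 0.0998). Over both ages together none of the floral meristem identity oligos passed with the set as a term: PTAP1-1B was 2.65 higher (adjusted p = 0.0935), PTAP1-2A 2.27 (adjusted p = 0.256) and PTLF 0.82 (adjusted p = 0.159). At age 6 alone PTAP1-1B and PTAP1-2A passed in that fit, at 4.14 (adjusted p = 0.0253) and 4.74 (adjusted p = 0.0317), and PTLF did not (0.83, adjusted p = 0.215).

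None of the 3 floral organ identity oligos passed, while 46.1% of all oligos did, and their median difference was 0.18. PTAG1, an AGAMOUS relative for stamens and carpels, read 4.98, 5.18, 5.98 and 5.96 in the buds and 4.86, 4.11, 4.23 and 6.24 in the tips. Its difference was 0.66, with a 95% interval from −0.19 to 1.52 (limma adjusted p = 0.195), and it passed on the values as deposited (0.97, adjusted p = 0.0479). PTAG2, a second AGAMOUS relative, differed by 0.04 with an interval from −0.59 to 0.67, and PTD, a DEFICIENS relative for petals and stamens, by 0.18 with an interval from −0.44 to 0.81.

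These 6 floral oligos are also the defining markers of floral tissue used here, and 3 of 6 were called at age 6 and 0 of 6 at age 5, against 39.6% and 38.7% of all oligos. Of the 3, PTLF lost its call at age 6 (adjusted p = 0.0304) with arrays centred on their medians, in a fit of the compared groups alone, with the set as a term and without bud or tip isolation b of age 6 (adjusted p up to 0.393). The count of 0 at age 5 was near the threshold for PTAP1-1B (limma adjusted p = 0.0544). That oligo passed at age 5 in 4 other settings, among them the deposited values and a fit of the compared groups alone. The mean level of the 6 oligos was 6.23 and 5.92 in the bud isolations of age 5, 7.53 and 7.73 in those of age 6, and 5.60 to 6.08 in the tips. It was 10.36 and 11.21 in the floral buds of age 6 of unstated sex, and 11.28 in both isolations of the male ones. In this mean the buds of age 6 thus lay above the tips and the buds of age 5, and under every floral bud isolation. Oligo by oligo, the buds of age 6 overlapped the tips for PTAG1, PTAG2 and PTD. One bud isolation of age 6, isolation b, fell in the hybridisation set of the floral buds, and isolation a did not. The part of floral tissue in the result was not tested.

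**Figure D2:**
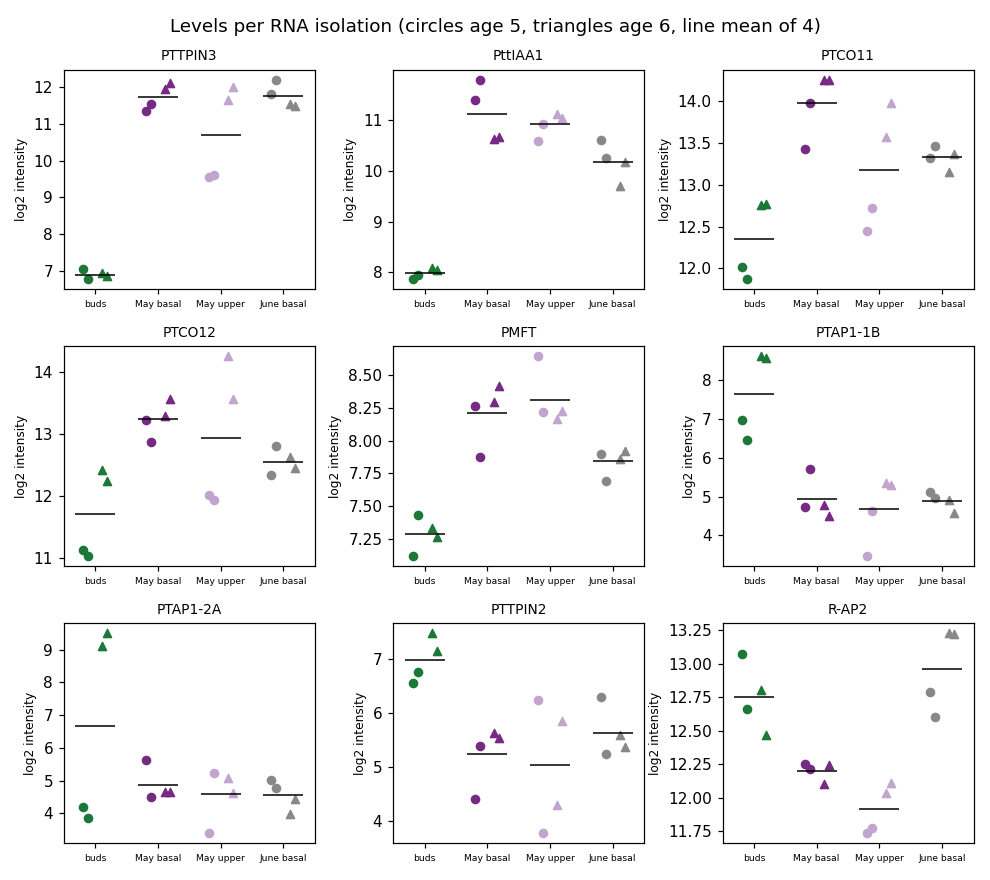
Each panel shows the log2 level of an oligo in single RNA isolations of vegetative buds, May basal tips, May upper tips and June basal tips, with circles for age 5, triangles for age 6 and a line at the mean of 4. The buds of PTTPIN3 sit between 6.78 and 7.05, far under every tip isolation, and the buds of PTAP1-2A split by age, near 4 at age 5 and above 9 at age 6.

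Gibberellin metabolism had 2 oligos, of which 1 was higher in the buds, where 24.4% of all oligos were higher. The median difference of the 2 was 0.38. PttGA2-OX, named for the oxidase that inactivates gibberellins, read 8.80, 8.76, 8.44 and 9.07 in the buds and 6.63, 7.29, 8.29 and 8.15 in the tips. The buds lay above all tips, by a wide margin at age 5 and a small one at age 6. PttGA2-OX rose by 1.18 ± 0.26 (limma adjusted p = 0.000671), 1.82 at age 5 and 0.54 at age 6, the latter without passing (adjusted p = 0.253). With the set as a term it was 0.48 and did not pass (limma adjusted p = 0.652).

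GA20-OX, named for the oxidase of gibberellin synthesis, read 4.68, 5.57, 4.68 and 4.63 in the buds and 5.33, 5.59, 5.07 and 5.26 in the tips. A single bud isolation, b of age 5, reached the range of the tips. The difference was −0.42, with a 95% interval from −1.25 to 0.41 (limma adjusted p = 0.408).

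None of 4 light receptor oligos passed, while 46.1% of all oligos did, and their median difference was −0.19. PHYA, PHYB1 and PHYB2 are named for phytochromes, the red and far-red receptors, and PTCRY1D for a cryptochrome, a blue light receptor. PHYB2 read 7.30, 7.45, 7.23 and 7.03 in the buds and 7.22, 7.28, 7.67 and 8.08 in the tips, with the tips above the buds at age 6 only. Its mean difference was −0.31, with an interval from −0.69 to 0.07 (limma adjusted p = 0.178), and at age 6 alone it was −0.74 and passed (adjusted p = 0.027). That call was lost as deposited, in a fit of the compared groups alone and with the set as a term, where it was −0.26 (adjusted p = 0.776), and without bud or tip isolation b of age 6 (adjusted p up to 0.206). PTCRY1D differed by −0.25 with an interval from −0.61 to 0.10, PHYB1 by −0.12 with an interval from −0.58 to 0.34, and PHYA by 0.32 with an interval from −0.34 to 0.99. Of these, PTCRY1D passed under cyclic loess scaling (−0.37, adjusted p = 0.0385).

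The INDETERMINATE1-like oligos are named for a maize zinc finger regulator of flowering. Of 3 measured, 1 was higher in the buds, where 24.4% of all oligos were higher, and the median difference of the 3 was 0.54. PTID1L1A read 8.64, 8.58, 8.96 and 8.87 in the buds and 7.53, 7.95, 8.19 and 8.07 in the tips, without overlap. It rose by 0.83 ± 0.26 (limma adjusted p = 0.0116) and by the same 0.83 with the set as a term, where it did not pass (adjusted p = 0.43). PTID1L4 differed by 0.54 with a 95% interval from −0.40 to 1.48, and a single tip isolation, b of age 6 at 7.22, lay far under the other tips. PTID1L3 differed by −0.17 with an interval from −0.86 to 0.53.

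The homeobox oligos HB1 and HB2 did not pass, with differences of 0.19 (interval −0.24 to 0.61) and 0.33 (interval −0.00 to 0.66). R-AP2, named for the AP2 family of transcription factors, had no stable direction. It read 13.07, 12.66, 12.80 and 12.47 in the buds and 12.25, 12.21, 12.10 and 12.24 in the tips, which gave a rise of 0.55 ± 0.14 (limma adjusted p = 0.0025), not passing with the set as a term (0.83, adjusted p = 0.107). On the values as deposited the difference was −0.11 and did not pass (adjusted p = 0.519), and with arrays centred on their medians R-AP2 was lower in the buds, at −0.35 (adjusted p = 0.0342).

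**Figure D3:**
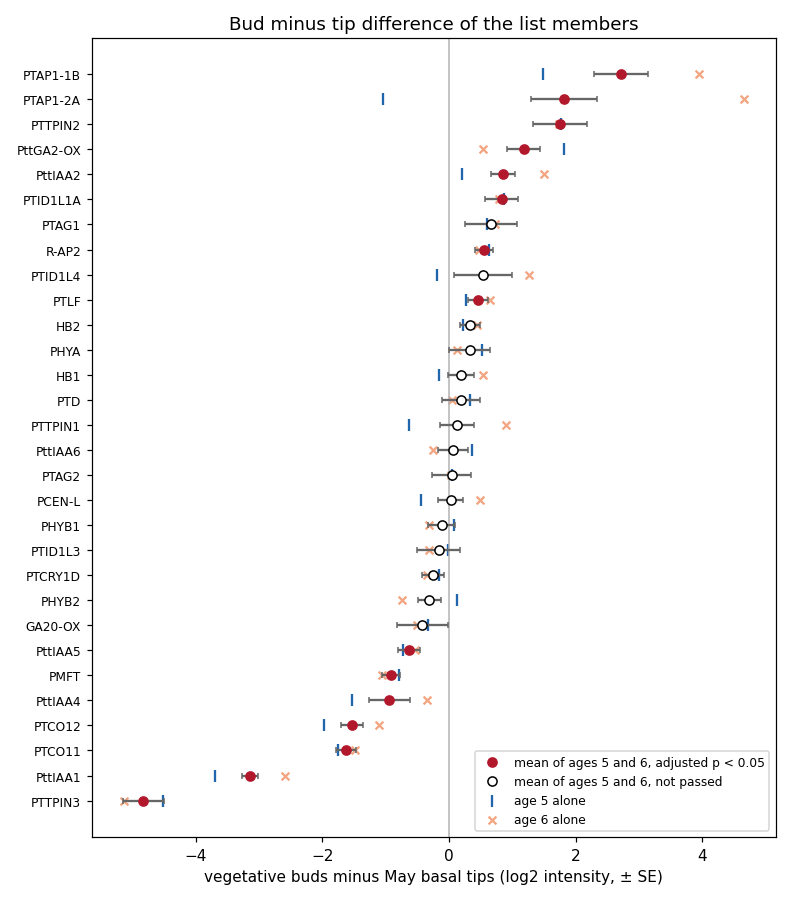
The 30 list members are ordered by their difference, vegetative buds minus May basal tips in log2 units, with bars of 1 standard error; filled points passed at an adjusted p under 0.05, open points did not, and blue ticks and orange crosses give ages 5 and 6 alone. Of the 30, 8 were higher and 7 lower, and the ticks and crosses lie farthest apart for PTAP1-2A, at −1.04 and 4.66.

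Among the IDs without a gene name, the largest rises with the same sign at both ages exceeded the 2.72 of PTAP1-1B, and the largest falls were smaller than that of PTTPIN3. UM89TG10 read 9.40, 9.78, 10.57 and 10.56 in the buds and 7.49, 4.87, 5.10 and 5.45 in the tips. All buds lay above all tips, and tip isolation a of age 5, which rests on 1 well, stood above the other tips. UM89TG10 rose by 4.35 ± 0.46, or 20.4-fold (limma adjusted p = 6.97e-08). M104E08 read 9.15, 9.67, 10.21 and 10.00 in the buds and 5.95, 6.30, 6.01 and 6.09 in the tips, a rise of 3.67 ± 0.34 or 12.7-fold (limma adjusted p = 7.32e-09).

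In the other direction, M116E04 read 7.68, 7.59, 7.86 and 7.87 in the buds and 10.68, 11.29, 10.74 and 10.34 in the tips. It fell by 3.01 ± 0.27, an 8.07-fold lower level (limma adjusted p = 4.33e-09). I017P76P read 7.74, 7.44, 7.39 and 7.74 in the buds and 10.25, 9.87, 9.66 and 9.68 in the tips, and fell by 2.29 ± 0.21, or 4.89-fold (limma adjusted p = 4.33e-09). Neither oligo had overlapping sides. All 4 of these clone oligos kept their calls with the set as a term.

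Taken by age, 84 oligos (38.7%) were called at age 5, 48 higher and 36 lower in the buds, and 86 (39.6%) at age 6, 40 higher and 46 lower. The majority direction turned with the scaling: arrays centred on their medians gave 30 higher and 45 lower at age 5, and the deposited values gave 46 higher and 35 lower at age 6. Cyclic loess gave 36 higher and 38 lower at age 5. With the set as a term 35 and 33 oligos were called. Both ages called 52 oligos, which is 61.9% of the calls of age 5 and 60.5% of those of age 6. Of the 52, 49 had the same sign, 26 higher and 23 lower. Across the 217 oligos the differences of the ages correlated with Pearson r = 0.622 and Spearman rho = 0.580, a description over oligos that share arrays and are not independent replicates.

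The difference between the ages was itself tested as an interaction, and 23 oligos (10.6%) passed, 10 with a larger signed difference at age 6 and 13 with a smaller one. On the deposited values the same test gave 12 and 9, and under cyclic loess 13 and 10. An unadjusted p under 0.05 was reached by 57. Of the 23, 16 were called at a single age and 13 had opposite signs at the ages. Without 1 isolation the count ran from 11 to 24. It fell to 11 without bud isolation a of age 5, to 14 without bud isolation b of age 5, to 14 and 15 without bud isolations a and b of age 6, and to 14 without tip isolation b of age 6.

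PTAP1-2A led the oligos with gene symbols, with a bud minus tip difference 5.70 ± 1.04 larger at age 6 than at age 5 (limma adjusted p = 0.00117). Its mean level moved from 4.03 to 9.31 between buds of age 5 and of age 6, and from 5.06 to 4.65 between the tips. It kept this call in each setting and each fit without an isolation. For PttIAA1 the difference was 1.10 ± 0.26 less negative at age 6 (limma adjusted p = 0.00801), with the age 5 tips higher than the age 6 tips, and the call was lost in a fit of the compared groups alone (adjusted p = 0.0719). For PttIAA2 it was 1.29 ± 0.39 larger at age 6 (limma adjusted p = 0.0329), a call lost in 5 of the 8 fits without an isolation, with adjusted p up to 0.208, and in a fit of the compared groups alone (adjusted p = 0.131).

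PTAP1-1B had an age difference of 2.46 ± 0.85 that did not pass (limma adjusted p = 0.0608). That difference passed with wells kept separate, in a fit of the compared groups alone and in 1 of 8 fits without an isolation. For PTTPIN1 the age difference was 1.53 ± 0.54 without passing (limma adjusted p = 0.0639). The PTTPIN1 value passed with the set as a term (2.21, adjusted p = 0.0294). Clone oligo R07C07, chosen after its values were seen, turned around with age. It read 8.13, 8.05, 7.95 and 7.31 in the buds and 6.29, 7.09, 8.91 and 8.87 in the tips, so that the buds were above the tips at age 5 and under them at age 6. The difference moved from 1.40 to −1.26, an interaction of −2.66 ± 0.39 (limma adjusted p = 0.000156).

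**Figure D4:**
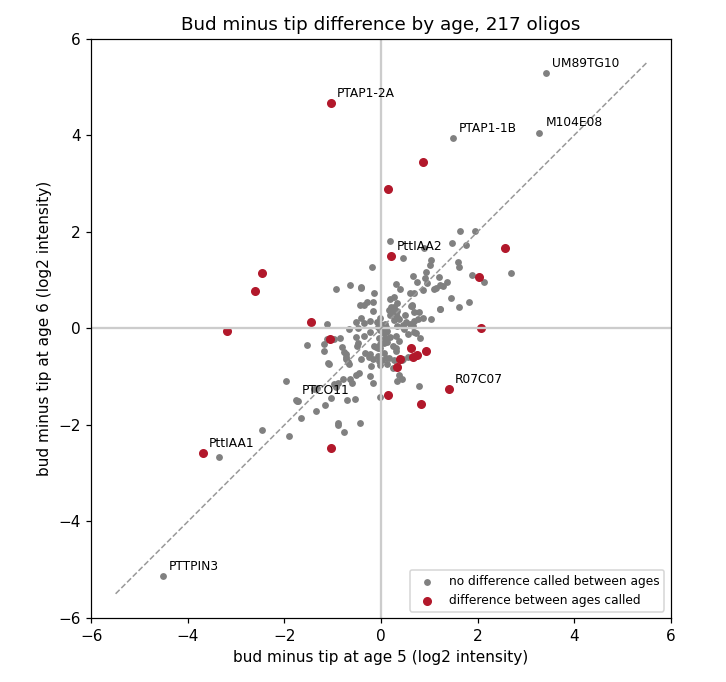
Each point is an oligo, with its bud minus tip difference at age 5 on the x axis and at age 6 on the y axis in log2 units; the dashed line marks equal differences and red points are the 23 oligos whose difference between ages was called. PTTPIN3 lies near the line at −4.52 and −5.13, and PTAP1-2A far from it at −1.04 and 4.66.

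The May basal tips were also set against the May upper tips of the same ages, tips that the labels do not call basal, to see which of the bud differences depend on the choice of tip. That comparison shares its basal isolations with the one above. It called 62 oligos (28.6%), 34 higher and 28 lower in the basal tips, whereas the deposited values gave 29 higher and 35 lower and cyclic loess 31 higher and 35 lower. PTTPIN3 was among them: it read 9.57, 9.60, 11.64 and 11.99 in the upper tips, 1.03 ± 0.32 under the basal ones (limma adjusted p = 0.0193), and the difference of buds from upper tips was −3.79. The upper tips of age 5 lay between the buds and the other tips. With the set as a term the basal and upper difference of PTTPIN3 did not pass (0.88, adjusted p = 0.32), nor did it without basal isolation b of age 5 or of age 6 or upper isolation a of age 6 (adjusted p up to 0.0658).

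PTCO11 was 0.80 ± 0.15 higher in the basal than in the upper tips (limma adjusted p = 0.0003), so its bud difference was −0.83 against the upper tips and −1.63 against the basal ones. Its basal and upper difference also did not pass with the set as a term (0.39, adjusted p = 0.313). PttIAA4 was 1.21 ± 0.33 lower in the basal than in the upper tips (limma adjusted p = 0.00606; 0.0535 without upper isolation a of age 6), with bud, basal and upper means of 5.53, 6.48 and 7.68. PTLF was 0.52 ± 0.16 higher in the basal tips (limma adjusted p = 0.0196), with upper, basal and bud means of 8.32, 8.83 and 9.29. That PTLF call was lost in a fit of the compared groups alone (adjusted p = 0.136). It was also lost without basal isolation a of age 5 or of age 6, or without upper isolation b of age 5 or of age 6 (adjusted p up to 0.143).

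HB1 and HB2, which did not pass between buds and basal tips, were 0.89 and 0.63 higher in the basal than in the upper tips (limma adjusted p = 0.00177 and 0.00401), and HB2 lost that call with the set as a term (0.58, adjusted p = 0.169). PTCRY1D, also not passing between buds and basal tips, was 0.83 higher in the basal than in the upper tips (limma adjusted p = 0.000728). With the set as a term the PTCRY1D call was lost (adjusted p = 0.0698). PTD, likewise not passing in the bud comparison, was 1.06 lower in the basal tips (adjusted p = 0.01). The PTD call was lost with the set as a term (adjusted p = 0.255), with wells kept separate, and without upper isolation b of age 5 or a of age 6 (adjusted p up to 0.0577). PttGA2-OX was 0.64 lower in the basal tips without passing (limma adjusted p = 0.0701), but passed in 4 other settings, among them the deposited values. Its bud difference was 1.18 against the basal tips and 0.53 against the upper ones. The upper tips of PttGA2-OX, at 8.02 to 8.51, overlapped the buds. PttIAA1 differed little between the tips, by 0.20 with a 95% interval from −0.07 to 0.47 (limma adjusted p = 0.254), so that its bud difference was −2.94 against upper tips. PTAP1-1B differed between the tips by 0.24 (interval −0.64 to 1.13), M104E08 by 0.07 (interval −0.63 to 0.78) and PMFT by −0.10 (interval −0.39 to 0.19), and none of these passed.

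June basal tips of the same ages give a second month, and 3 of their 4 isolations fell in the hybridisation set that holds 3 of the 4 bud isolations. Their levels are given without a test. PTTPIN3 read 11.80, 12.20, 11.52 and 11.47 there, PttIAA1 10.62, 10.25, 9.70 and 10.18, and M116E04 11.15, 11.00, 11.07 and 10.45, each above every bud isolation. PTCO11 read 13.32, 13.47, 13.15 and 13.37 in the June basal tips, and PTAP1-1B 5.13, 4.96, 4.90 and 4.56, so these stayed on the same side of the buds as the May basal tips. PTCO12, at 12.34, 12.80, 12.63 and 12.44, overlapped the buds of age 6. For R-AP2, at 12.79, 12.60, 13.23 and 13.22, the June basal isolations overlapped the buds. PTLF, at 9.23, 8.92, 9.74 and 9.75, overlapped the buds too.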

How the data were processed

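The deposited table holds 1 value per oligo and array, read as log2 intensity from its range (1.10 to 16.25), because no base of the logarithm is stated. How the arrays were scanned, background-corrected and earlier normalized, and how duplicate spots were joined, is not given in the sources used here. None (0) of the 217 IDs matched the RefSeq gene table, so no position, annotation or sequence is printed. Medians over the 74 arrays ran from 8.05 to 8.79, a range of 0.735 above the 0.2 allowed, so arrays were quantile-normalized, and the wells of an isolation were averaged. Missing values stayed missing, and some isolations rest on 1 well for an oligo. Besides UM89TG10, this holds for PttGA2-OX in tip isolation b of age 5 and PttIAA4 in tip isolation b of age 6. It also holds for PTID1L1A in bud isolation a of age 5 and GA20-OX in bud isolation b of age 6. limma 3.58.1 in R 4.3.3 fitted 19 group means to 37 isolations (18 residual degrees of freedom, median residual SD 0.297). Comparisons are contrasts with equal group weights, with two-sided moderated tests and Benjamini-Hochberg adjustment over 217 oligos. Adjusted p-values are limma's throughout, intervals are at 95%, and folds take the values as log2.

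The members and gene lists were chosen with earlier results of these data known. Named oligos are the list members, called gene symbols with the same sign at both ages, the 2 largest called rises and 2 largest falls among clone IDs with the same sign at both ages, and the 4 gene symbols with the smallest interaction p. Any other name is said to be chosen after its values were seen. Isolation letters were checked as pairs: over 6 pairs of groups the deviations correlated at −0.165 to 0.0975, with 0 over 0.1, so letters were not treated as pairs. The fit was tested on simulated data. Alternatives were the scaling, a filter on dim oligos, complete oligos only, wells kept separate, a fit of these groups alone, the letter or hybridisation set as a block, and leaving out each isolation.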

Additional observations from a re-analysis of the deposited data

Results flagged for a closer look

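Among the named oligos, 68 sides of 4 isolations were checked for an isolation far from the others. PTAP1-2A in May basal tip isolation a of age 5 read 5.62, where the other tips read 4.51 to 4.65. GA20-OX in bud isolation b of age 5 read 5.57, where the other buds read 4.63 to 4.68. The rule treats the 4 isolations of a side as alike, although each side joins both ages. The share of sides that chance alone would mark is therefore not known.

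The bud and tip difference was not equal at the 2 ages for 23 oligos. By name, the interaction was 5.70 for PTAP1-2A, 1.29 for PttIAA2 and 1.10 for PttIAA1, each tested in the fit over all oligos. For PttIAA1 the difference was −3.69 at age 5 and −2.59 at age 6, so its size was smaller at age 6. PTAP1-2A is a floral marker and was high in the buds of age 6, and the part of floral tissue in it was not tested.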

How the results depend on the processing

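The hybridisation set as a fixed term left 34 calls over both ages, 35 at age 5, 33 at age 6 and 15 for the interaction. With May basal tip isolation b of age 5 placed with the May upper tips instead, an alternative chosen after seeing the data, only 1 of 5 comparisons could be fitted, age 6, with 30 calls. Clustering by complete linkage gave this same placement. The well differences of that isolation correlated on average at 0.109 with its own set and at 0.0781 with that of the May upper tips. The other fits with the set as a fixed term therefore depend on how this isolation is placed. As a random block the set gave 90 calls over both ages. Requiring also a difference of at least 1 log2 unit left 56 calls over both ages, 52 at age 5, 56 at age 6 and 30 between basal and upper tips. Without 1 isolation the calls ran from 87 to 98 over both ages, from 56 to 80 at age 5, from 60 to 73 at age 6, from 11 to 24 for the interaction and from 52 to 62 between basal and upper tips. The isolation letter as a replicate block gave 100 calls over both ages and 27 for the interaction, where it added PTTPIN1 (1.53, adjusted p = 0.0446). Cyclic loess gave 53 higher and 49 lower. R-AP2 reversed on the values as deposited (−0.11 over both ages, −0.07 at age 5) and with arrays centred on their medians (−0.35 and −0.27). Of the 19 named oligos called between buds and tips, 10 lost the call with the set as a term and 8 kept it in every setting and every fit without an isolation. The 19 include clone oligos picked for the largest called differences. Of all 100 calls, 32 were kept with the set as a term. The causes were not tested. Without background readings, what is limited by signal cannot be judged.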
